A study of Homo sapiens with 6 samples.

Results

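The growth hormone and insulin-like growth factor (IGF) axis was described by 7 genes, IGF1, GHR, IGFALS, IGFBP1, IGFBP2, IGFBP3 and IGFBP4. They were taken by name out of 20033 protein-coding genes of GENCODE release 44 on hg38. The data are peaks of the TTD, the Tandem-Tudor domain of UHRF1, a reader of histone H3 tails that carry K9me2 or K9me3. Native mononucleosomes of untreated HepG2 cells, an established line from a human hepatoblastoma, were pulled down with the GST-tagged domain, a procedure called CIDOP in which the domain stands in for the antibody of a ChIP. The study holds 6 libraries in 3 groups, 2 biological replicates to a group, which are CIDOP with the TTD, ChIP for H3K9me2 and input. For the TTD, 1 list of 31569 broad peaks was analysed, made after both replicates had been averaged. It gives the position and the width of a peak and nothing else, so that no value below carries a replicate error or a test, the read depth behind a peak is unknown, and the place of a gene among all genes is a description. Expression was not measured in this list, so the liver origin of the cells could not be checked against marker genes.

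Growth hormone from the pituitary acts on hepatocytes through its receptor GHR, which signals through JAK2 and STAT5B and raises the transcription of IGF1. The liver is the main source of circulating IGF1. In blood most IGF1 is held in a complex of IGFBP3 and the acid labile subunit, the product of IGFALS. IGFBP1 is made in the liver under the control of insulin, and its gene is a known target of FOXO factors. IGFBP2 and IGFBP4 are further binding proteins that hold IGFs away from their receptor, and IGFBP4 is cut by the protease PAPPA.

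The cover, which is the percent of the base pairs of a window that lie in TTD peaks, was taken for the gene body, for 5 kb around the transcription start site (TSS) and for 200 kb around it. The TSS is the annotated 5′ end of the gene. A TTD peak overlapped the gene body of 4 of the 7 genes, the 5 kb window of 1 and the 200 kb window of 6. Among all protein-coding genes these shares were 34.2%, 16.9% and 77.9%. For the 7 genes the shares were 57.1%, 14.3% and 85.7%. Those for the TSS and for the 200 kb lie near the background, so that these counts are no result about the 7 genes. The share for the gene body rises with length. Among genes within a factor of 2 in length it ran from 8.86% for IGFALS to 77.3% for GHR. The count of 4 is therefore a description only, and it fell to 3 with peaks at or above the median width. IGF1, GHR, IGFBP2 and IGFBP4 held peaks within the gene, IGFBP1 alone of the 7 had one within 2.5 kb of its TSS, and IGFALS had none in any window. The median cover of the 200 kb was 7.37% over the 7 genes and 2% over all genes. The latter value was exceeded by 5 of the 7, and by 10010 of all 20033 genes. The 5 are not separate observations, since IGFBP1 and IGFBP3 have the same 4 peaks. IGFBP2 and IGFBP4 lie on chromosomes with 5.67% and 4.08% cover, against 3.02% of the genome. Whether the 7 genes depart from other genes was not tested.

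**Figure D1:**
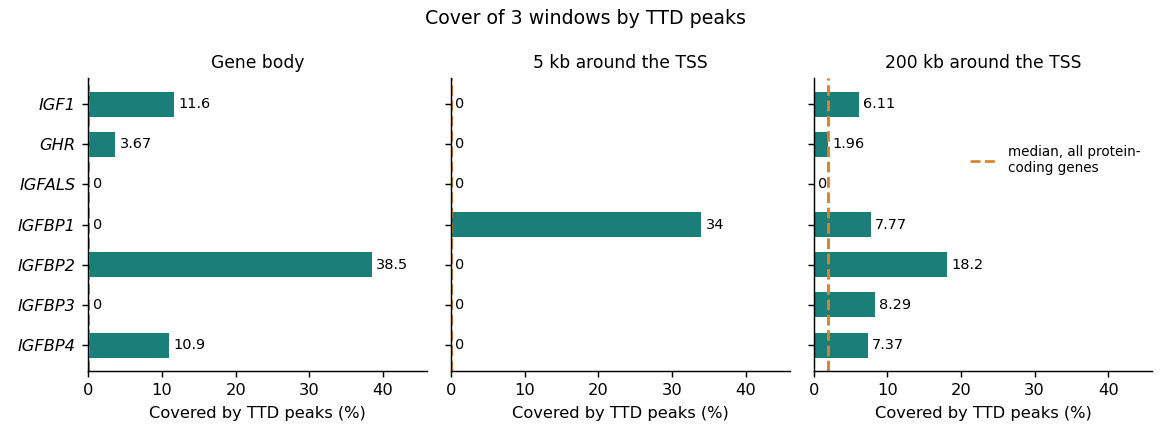
Percent of the gene body, of the 5 kb and of the 200 kb around the TSS that lies in TTD peaks (horizontal axes), for each of the 7 genes (rows). The dashed line is the median of 20033 protein-coding genes, which is 0 for the first 2 windows and 2% for the last. IGFBP2 has the longest bar for the gene body (38.5%) and for the 200 kb (18.2%), and IGFBP1 the single bar at the TSS (34%).

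The DNA under the peaks nearest to a TSS is given first, since the list itself has no signal to show. The 300 bases at the centre of the peak nearest to the TSS are printed for IGF1, GHR and IGFBP1 on the strand of the gene, 5′ to 3′, with each CpG in capitals. The nearest peak to the TSS of IGFBP3 is the one printed for IGFBP1, and IGFALS had no peak within 100 kb. The stretches are chr12:102454841-102455140 on the minus strand (IGF1), chr5:42516201-42516500 on the plus strand (GHR) and chr7:45886661-45886960 on the plus strand (IGFBP1), all read from hg38.
IGF1: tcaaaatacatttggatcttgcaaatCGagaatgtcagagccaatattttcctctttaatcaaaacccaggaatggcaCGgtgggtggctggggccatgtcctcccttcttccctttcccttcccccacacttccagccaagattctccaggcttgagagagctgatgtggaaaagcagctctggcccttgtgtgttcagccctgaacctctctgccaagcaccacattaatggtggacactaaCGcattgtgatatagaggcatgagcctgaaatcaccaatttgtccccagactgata
GHR: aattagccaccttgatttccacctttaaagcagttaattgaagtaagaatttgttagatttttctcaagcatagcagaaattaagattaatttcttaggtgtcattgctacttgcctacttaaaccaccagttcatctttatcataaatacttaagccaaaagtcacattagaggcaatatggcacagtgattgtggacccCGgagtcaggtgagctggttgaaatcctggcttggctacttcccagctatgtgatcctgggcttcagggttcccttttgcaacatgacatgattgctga
IGFBP1: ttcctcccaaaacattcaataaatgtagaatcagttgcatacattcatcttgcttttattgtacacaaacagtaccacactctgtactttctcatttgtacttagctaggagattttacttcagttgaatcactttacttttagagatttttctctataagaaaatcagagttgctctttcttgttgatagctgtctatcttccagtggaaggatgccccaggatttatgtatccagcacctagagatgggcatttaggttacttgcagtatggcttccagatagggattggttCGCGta
The 3 stretches are examples, and the base composition of all 25 peaks is given further on. The stretches of IGF1 and GHR lie in introns, and that of IGFBP1 lies before the gene. None of them crosses a TSS. The genome sequence used carries no repeat marks, so which of these stretches are repeats was not determined.

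IGF1, the main endocrine product of the axis in liver, lies on the minus strand at chr12:102395874-102481744 and spans 85.9 kb. Its 5 kb around the TSS were free of TTD peaks, whereas the gene body held 4 peaks. They covered 11.6% of the gene, more than in 91.3% of protein-coding genes. Long genes have more room for a peak, and among 5764 genes within a factor of 2 in length 55.0% held one. Of all 5764, 90.4% had a lower cover than IGF1.

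The peaks of IGF1 all lay in the direction of transcription. The first began 25884 bp after the TSS and was 1740 bp wide, and the following ones began after 40.1 kb (1730 bp wide), 53.9 kb (3030 bp) and 61.9 kb (3480 bp). The first 3 lie in intron 2 of the canonical transcript, the longest intron of the gene at 56 kb, and the fourth crosses exon 3. A further peak of 2230 bp began 91.8 kb after the TSS, past the end of the gene, in the long non-coding RNA genes HELLPAR and LINC02456. LINC02456 also spans the 4 peaks within IGF1, and the list cannot assign a peak to one gene or the other. No peak lay in the 100 kb before the TSS, and the peak-free stretch around the TSS spanned 392540 bp, longer than 95.6% of all stretches between neighbouring peaks. Their median is 22760 bp. The 200 kb around the TSS were covered to 6.11%, above 79.9% of all genes and above 85.9% of the 1038 genes of chromosome 12. With only peaks at or above the median width this cover was 3.255%, and that of the gene body 7.58%. With 50 kb on each side of the TSS the cover was 3.47%.

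The TSS of IGF1 is poor in CpG. The observed/expected CpG ratio of the 1 kb around it was 0.0663, and 0.914% of genes had a lower one. In the quartile of genes with the lowest ratio 15.1% had a TTD peak within 2.5 kb of the TSS, against 15.5%, 20.01% and 17.1% in the following quartiles. The mean cover of the 5 kb was 6.62% in the lowest quartile and 4.70%, 5.46% and 4.43% in the others. IGF1 had no such peak. The canonical transcript starts 1181 bp after the annotated 5′ end. None of the 5 annotated starts of protein-coding transcripts had a peak within 2.5 kb.

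GHR, the receptor that carries the growth hormone signal into the cell, lies on the plus strand at chr5:42423439-42721878. At 298 kb it is the longest of the 7 genes. Its 4 peaks covered 3.67% of the gene body, more than in 78.8% of all genes. Of 2021 genes of like length 77.3% held a peak, with a median cover of 1.74%, and 68.4% had less cover than GHR. The gene therefore stood closer to other genes of its length than IGF1 did.

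The peaks of GHR lay deep in the gene. The first, 3920 bp wide, began 90952 bp after the TSS in intron 1 and overlapped 146 bp of an exon that is used by other transcripts than the canonical one. Intron 2, of 63.1 kb, held a peak of 4110 bp and another of 1940 bp, and was covered to 9.59%. The last peak, 990 bp wide, lay in intron 5 at 273 kb from the TSS. These last 3 peaks are nearer to the TSS of CCDC152, a gene at the far end of GHR, than to that of GHR. None of the 7 annotated starts of protein-coding transcripts of GHR had a peak within 2.5 kb. The peak-free stretch around the TSS measured 435320 bp, and 81 of 1592 stretches on chromosome 5 were longer. The 200 kb around the TSS were covered to 1.96%, a value near the median of all genes.

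**Figure D2:**
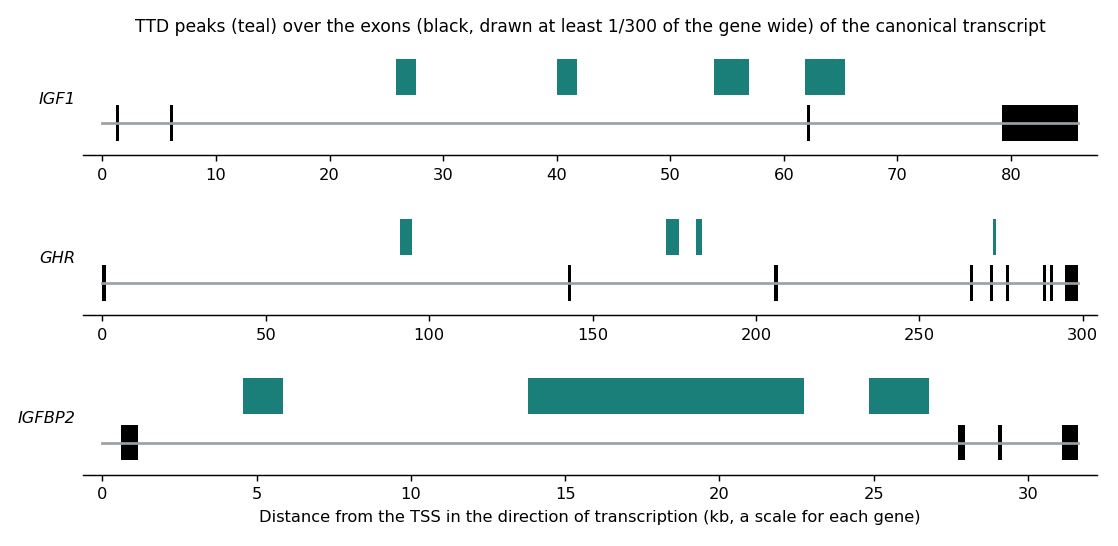
TTD peaks (teal) along IGF1, GHR and IGFBP2, as distance from the TSS in kb in the direction of transcription, each gene at its own scale, with the exons of the canonical transcript in black. The 4 peaks of IGF1 begin 25.9 kb into the gene, the 4 of GHR begin at 91 kb, and the 3 of IGFBP2 fill much of intron 1.

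STAT5 binds the motif TTCNNNGAA, which is its own reverse complement, and was searched because growth hormone acts through it. In IGF1 and GHR, 3 of the 8 peaks in the gene bodies held such letters, and the peak before IGFBP1 held them as well. The matches are printed with 10 bases on each side on the strand of the gene, 5′ to 3′, with the match in capitals. They lie 26355 bp, 27275 bp, 56320 bp and 56457 bp after the TSS of IGF1, 173366 bp, 173972 bp and 176362 bp after that of GHR, and 1263 bp and 1236 bp before that of IGFBP1, counted to the first base printed.
IGF1 match 1: agatataacaTTCTTAGAActgtttctgt
IGF1 match 2: gctgttatctTTCAGGGAAatctaggaat
IGF1 match 3: agggccataaTTCCTAGAAaaagatgacc
IGF1 match 4: tgacatgcagTTCATAGAAaagagaacat
GHR match 1: ggatgccagcTTCCAAGAAaagatcagtc
GHR match 2: cttatggaatTTCTGAGAAttcaaaaacc
GHR match 3: tgggcctgcaTTCTTTGAAcagttggcta
IGFBP1 match 1: cccttacaccTTCCCTGAAgggagcagca
IGFBP1 match 2: cagggatcatTTCCTTGAAtgtaagaatg
The density of these letters was that of any TTD peak. The 25 different peaks described for the 7 genes held 33 matches in 90.8 kb, or 0.363 per kb, against 0.352 per kb over all peaks. None of the 25 peak centres of 300 bases held one, and 9.31% of the centres of all peaks did.

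IGFALS, which encodes the acid labile subunit, lies on the minus strand at chr16:1790413-1794971 and spans 4.56 kb. No peak lay in the gene or within 100 kb of its TSS. The nearest peak began 501490 bp upstream and was 820 bp wide, a distance greater than for 97.6% of protein-coding genes. The stretch without a peak ran over 1604800 bp, from position 691661 to 2296460, and 73 protein-coding genes lie wholly within it. Only 2 of the 1355 stretches between neighbouring peaks on chromosome 16 were longer. Chromosome 16 itself was not poor in peaks, since 4.34% of it was covered against 3.02% of the genome, and the median cover of the 200 kb around its TSSs was 2.89%. Without a score in the list, a lack of peaks holds for the cutoff used to call them.

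IGFBP1 and IGFBP3 are neighbours on chromosome 7 and had the same 4 peaks within 100 kb. IGFBP1 is read on the plus strand (chr7:45888360-45893660, 5.3 kb) and IGFBP3 on the minus strand (chr7:45912245-45921874, 9.63 kb). Their 3′ ends face each other, and neither gene body held a peak. The 200 kb around the TSS were covered to 7.77% for IGFBP1 and to 8.29% for IGFBP3, above 85.4% and 86.8% of all genes. The median over the 930 genes of chromosome 7 was 1.54%.

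IGFBP1 was the gene with TTD peaks closest to its start. A peak of 1700 bp (chr7:45885961-45887660) spanned from 2399 to 700 bp before the TSS and covered 34% of the 5 kb window, more than in 94.0% of genes. In the 2.5 kb before the TSS 68% of the base pairs lay in this peak, whereas in the 2.5 kb after the TSS none did. A wider peak of 4740 bp followed, its near edge 6.88 kb upstream, nearer to the TSS of CCDC201 than to that of IGFBP1. Over all genes the cover was 6.47% in the 2.5 kb before the TSS and 4.13% in the 2.5 kb after it. The narrow peak is below the median width of all peaks, 2250 bp, and when the list was restricted to the wider ones no gene of the 7 had a peak within 2.5 kb of its TSS.

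The same peak before IGFBP1 was the one nearest to the TSS of IGFBP3, at 34214 bp in the direction of transcription. On the far side of IGFBP3 a peak of 8120 bp had its near edge 49.7 kb upstream of its TSS and one of 2020 bp had it 65.5 kb upstream. The wider of them exceeded 95.8% of all peaks in width. Both genes lay in a stretch of 83870 bp without a peak, which runs on past the TSS of IGFBP3. The CpG ratio at the TSS was 0.687 for IGFBP1 and 0.840 for IGFBP3, and both lie within the stretch without peaks.

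IGFBP2, a binding protein made in fetal and adult liver, was the most covered of the 7 genes. It lies on the plus strand at chr2:216632828-216664436 and spans 31.6 kb. Its 3 peaks covered 38.5% of the gene body, above 98.6% of all genes and above 98.9% of 7194 genes of like length, of which 31.5% held a peak. All 3 lie in intron 1, of 26.6 kb, of which they covered 45.8%. They began 4.56 kb, 13.8 kb and 24.8 kb after the TSS and were 1290, 8940 and 1940 bp wide. The wide one exceeded 96.8% of all peaks in width.

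The ground before IGFBP2 was covered as well. A peak of 14170 bp, wider than 99.3% of all peaks, and one of 7410 bp had their near edges 56.3 and 76.4 kb upstream. Both lie in the annotated span of RPL37A, a ribosomal protein gene, but far from its TSS. The midpoint of the peak of 7410 bp lies 53930 bp from that TSS. The TSS nearest to the peak of 14170 bp is that of IGFBP2, at 63373 bp. A further peak of 2580 bp had its near edge 47.1 kb upstream. The 200 kb were covered to 18.2% by 6 peaks, above 96.9% of all genes. Chromosome 2 was densely covered in these cells, at 5.67% against 3.02% of the genome, with a median of 5.5% around its TSSs. Within its 1247 genes IGFBP2 stood above 90.5%. The number of copies of chromosome 2 was not measured here, and its part in this cover was not tested. The 5 kb around the TSS had no peak. A pair of annotated starts of protein-coding transcripts further down the gene did, and one of them lies 8 bp from the last peak in the intron. IGFBP5, a neighbouring gene from the same family, had 4 peaks within 100 kb of its TSS, and 3 of them are those in intron 1 of IGFBP2.

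IGFBP4, on the plus strand at chr17:40443450-40457725, spans 14.3 kb. It held 1 peak of 1560 bp in intron 1, which covered 10.9% of the gene. This peak is below the median width of all peaks, 2250 bp, and the cover was 0 when only wider ones were kept. Of 6379 genes of like length 19.3% held a peak, and 89.8% had a lower cover. The peak began 2511 bp after the TSS, 11 bp outside the 5 kb window, so that its absence from the count at the TSS rests on the edge of that window. Within 100 kb there were 6 peaks with a cover of 7.37%, above 84.3% of all genes. The nearest TSS was that of IGFBP4 for 2 of them, and that of GJD3, TOP2A, TNS4 or CCR7 for the others. The peak before TOP2A has its midpoint 2339 bp from the TSS of that gene.

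**Figure D3:**
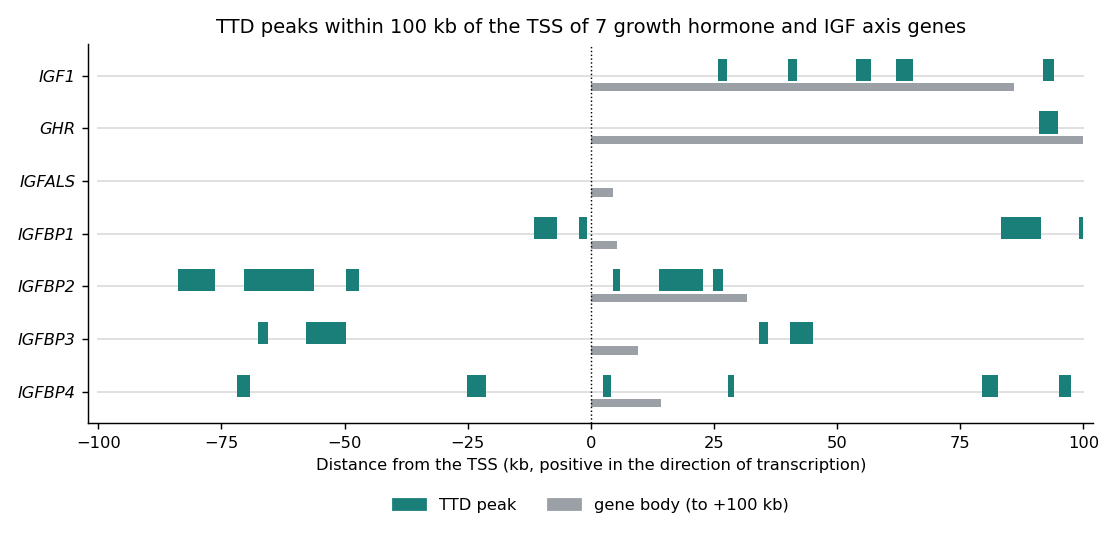
TTD peaks (teal boxes, drawn to scale) within 100 kb of the TSS of the 7 genes, against the distance from the TSS in kb, positive in the direction of transcription, with the gene bodies as grey bars. IGFALS has no box, IGFBP1 has the box nearest to the TSS (0.7 kb upstream), and IGFBP1 and IGFBP3 show the same 4 peaks in mirrored order.

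None of the 25 peaks lay over the annotated start of one of the 7 genes or of a protein-coding transcript of them. Starts of other transcripts were not checked. Of the 12 peaks within gene bodies, 11 lay in introns of the canonical transcript and 10 met no annotated exon of the gene. The shares of all TTD peaks over starts, introns and exons were not computed. These counts of places are therefore no result about the 7 genes. By distance, none of the 7 genes had cover in the 2.5 kb after the TSS, and 1 had cover in the 2.5 kb before it. Of all genes 9.18% and 12.4% had cover there, so that these counts are near the background. The mean cover of the 7 genes was 0 against 4.13% over all genes in the 2.5 kb after the TSS, and 9.71% against 6.47% in the 2.5 kb before it. Between 2.5 and 10 kb it was 5.43% against 4.28% after the TSS and 5.95% against 4.49% before it. Between 10 and 50 kb it was 7.84% against 3.72% after the TSS and 3.01% against 3.97% before it, with 4 of the 7 genes covered on each side (35.98% and 37.27% of all genes). Between 50 and 100 kb it was 7.79% against 3.77% after the TSS and 9.71% against 3.86% before it, the last of which rests on IGFBP2 at 43.2%, IGFBP3 at 19.6% and IGFBP4 at 5.24%. The same 2 peaks enter both of these means, after the TSS of IGFBP1 and before that of IGFBP3. Peaks are shared nearer to the TSS as well. Between 10 and 50 kb after the TSS IGFBP2 stood at 27.2% and IGFBP3 at 16.1%. The peaks of IGFBP3 there are those that enter the means before the TSS through IGFBP1.

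**Figure D4:**
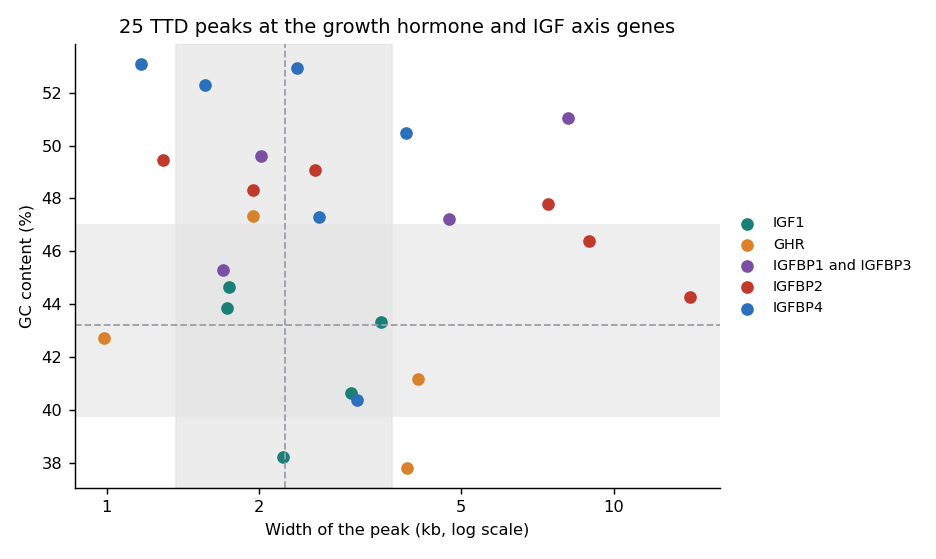
Width in kb (horizontal, log scale) and GC content in percent (vertical) of the 25 TTD peaks in the gene bodies or within 100 kb of the TSSs, coloured by gene. Dashed lines and grey bands are the medians and the quartiles of all 31569 peaks, and 6 of the 25 peaks lie at or below the median GC content of 43.2%.

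The peaks differed in width and in base composition between the genes. Widths ran from 990 bp in GHR to 14170 bp before IGFBP2, with a median of 2580 bp against 2250 bp over all peaks. The GC content ran from 37.8% in GHR to 53.1% near IGFBP4, with a median of 47.2% against 43.2%. The CpG ratio had a median of 0.180 against 0.193. The peaks of IGF1 lay between 38.2% and 44.7% GC and those of IGFBP2 between 44.3% and 49.5%. The peaks are not independent of one another, since those of a gene lie in the same stretch of chromosome.

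Further motifs were searched on both strands. The FOXA and FOXO motif TGTTTAC had 16 matches, 0.176 per kb against 0.188. The insulin response element CAAAACAA had 12, 0.132 per kb against 0.171, and the C/EBP motif TTGCNNAA had 54, 0.595 per kb against 0.619. The HNF4A motif CAAAGTCCA had 2, 0.022 per kb against 0.0321. In the centres, 1 of 25 held the FOXA and FOXO motif (6.24% of all peak centres), 2 the insulin response element (4.3%), 1 the HNF4A motif (1.6%) and 3 the C/EBP motif (16.2%). Of the 2 centres with the insulin response element, 1 is that of the peak in intron 1 of IGFBP4. RefSeq promoters, from 250 bases before to 50 after a start, were matched for 6 of the 7 genes. Of these the promoter of IGFALS alone held the STAT5 motif, which 7.66% of 35116 promoters hold, and none held one of the other motifs named here. These matches are letters in a window and say nothing of binding.

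The other genes of the axis were followed as a list of 32. A peak lay in the gene body of 12 of them (37.5%), within 2.5 kb of the TSS of 2 (6.25%) and within 100 kb of 28 (87.5%), against 34.2%, 16.9% and 77.9% over all genes. Their median cover of the 200 kb was 3.77%. Of the 4 ligand genes, GH1, GH2, GHRH and IGF2, none had a peak in the gene or near the TSS. Their 200 kb were covered to between 0.777% and 7.09%. Among genes of like length 4.55%, 4.61%, 15.8% and 30.3% held a peak in the gene. The lack of one in the ligand genes is therefore near the background. Of the 6 receptor genes 4 had peaks in the gene body, PRLR, IGF1R, IGF2R and INSR. These are long genes, of 144 to 316 kb, and among genes of like length between 67.7% and 78.4% held a peak. For GHRHR and GHSR, which had none, the shares were 43.8% and 9.62%. The count of receptor genes is thus near the background for their length. IGF2R, the receptor that clears IGF2 from the cell surface, had the most cover at a TSS, 47.8% of the 5 kb, and 13.2% of its 200 kb. PRLR, the prolactin receptor, which is related to GHR, had 10.0% of the 200 kb covered.

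Downstream of the receptors, all 7 genes of signal transduction had a peak within 100 kb, and none had one within 2.5 kb of the TSS. These counts are near the 77.9% and 16.9% of all genes. STAT5A and STAT5B are neighbours, each with 8 peaks and 5.665% of the 200 kb covered, and are not separate observations. IRS1, the docking protein of the insulin and IGF1 receptors, had the highest cover of the list, 24.2% of the 200 kb and 43.4% of the gene body, and it lies on chromosome 2 as IGFBP2 does. Of the 6 genes of negative regulators and phosphatases 5 had a peak within 100 kb. Among them SOCS1, an inhibitor of JAK kinases, had 21.0% of the 200 kb covered, and PTPN1, a phosphatase that acts on the insulin receptor and on JAK2, had 15.5%. Of the 4 genes around PAPPA that govern the cutting of binding proteins, 2 had no peak within 100 kb. Across the list, the 4 genes without one were GHRHR, PTPN11, PAPPA2 and STC1. FOXO3, 1 of 2 FOXO genes in the list, had a peak at the edge of the TSS window, with 2.52% of the 5 kb covered. All 7 genes from IGFBP1 to IGFBP7 had a peak within 100 kb, 3 of them in the gene body and 1 near the TSS, against 77.9%, 34.2% and 16.9% of all genes. These are not separate observations, since IGFBP1 and IGFBP3 share their peaks and IGFBP5 shares 3 of its 4 with IGFBP2.

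**Figure D5:**
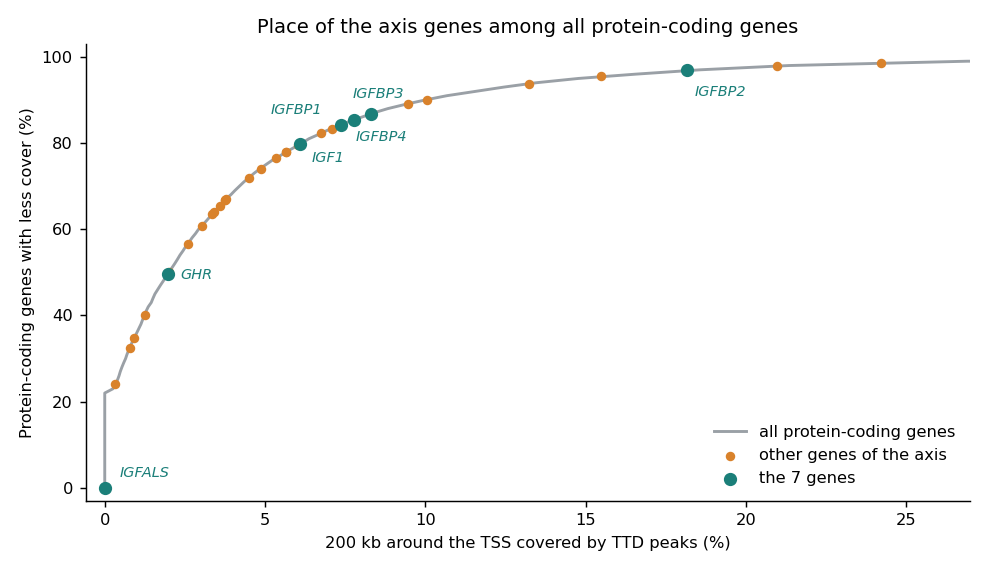
Cover of the 200 kb around the TSS by TTD peaks in percent (horizontal) against the percent of 20033 protein-coding genes with less cover (vertical). The grey line is all protein-coding genes, teal points are the 7 genes and orange points the 32 other genes of the axis. IGFALS sits at 0, GHR near the middle, and IGFBP2 above 96.9% of genes.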

How the data were processed

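UHRF1-TTD CIDOP, H3K9me2 ChIP and input were sequenced from HepG2 cells in 2 biological replicates each. Per the labels and the methods of the study, reads were trimmed with Trimmomatic 0.38, checked with FastQC 0.72 and mapped to hg38 with HISAT2 2.2.1, coverage was computed with deepTools 3.3.2, and broad peaks were called with MACS2 2.1.1 on the mean of both TTD replicates, freed of blacklisted regions and curated by hand. The values the authors deposited in the list are positions and widths of peaks in bp, with no score, signal or p-value. The 31569 widths match the positions. Read depth is not known from the list, and replicates were pooled, so no replicate error and no test is given. A Wilson interval served only to sort recomputed values of cover. The H3K9me2 ChIP and input libraries and the separate TTD replicates were not analysed here.

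Cover and overlap (at least 1 bp) were computed by interval arithmetic in Python 3.11.15 with numpy 2.4.6 on GENCODE release 44, and plotted with matplotlib 3.10.9. Genes of like length are within a factor of 2. The interval code was tested on simulated peaks. Motifs were searched in hg38 and in RefSeq promoters (GRCh38.p14), whose table matched 6 of the 7 genes, without IGFBP1. The genome sequence used carries no repeat marks, so repeat shares were not computed. Some sequences and a motif are not reported here. All 7 genes are named. Of the 32 others of the axis, those with a peak within 2.5 kb of the TSS and the 5 with the most cover of the 200 kb are named with values. Other genes are named where a peak lies over them or nearest to their TSS. The 4 ligand genes are named as a group. IGFBP5, IGF1R, INSR, GHSR, STAT5A, STAT5B and the 4 genes without a peak within 100 kb were named after their values were seen. The genes and lists were chosen with earlier results of these data known, and the STAT5 matches to print after they were seen. Alternatives used wide peaks (median width or more), joined peaks, other overlap rules, other TSSs and other windows.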

Additional observations from a re-analysis of the deposited data

How the results depend on the processing

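The count of genes with a TTD peak within 2.5 kb of the TSS, 1 in the report, fell to 0 in the stricter list of peaks at or above the median width, rose to 2 when any annotated transcript start counted (IGFBP2 was added) and to 3 with 5 kb on each side (IGFBP2 and IGFBP4 were added). The 22 different peaks within 100 kb became 13 in the stricter list, 12 with 50 kb on each side and 28 with the gene body and 100 kb on each side of it. In the stricter list 3 genes instead of 4 had a peak in the gene body (IGFBP4 was lost), and with 50 kb on each side 5 genes instead of 6 had one near (GHR was lost). Of the recomputed values of cover 20 moved past, and 64 stayed within, the 95% Wilson interval of the value in the report, taken as if each 150 bp of a window were 1 count. Values within it could still change, as for the 5 kb of IGFBP2, where 0 became 4.37% with 5 kb on each side. Joining peaks less than 1 kb apart, or asking for the midpoint or at least 50% of a peak in the window, changed none of these 4 counts, and neither did the TSS of the canonical transcript for the 3 that use a TSS. The choices that were added after the data were seen include the rank among the genes of a chromosome and motif matches over whole peaks. The plan also did not name the stretches without peaks, the bins of distance or the distance to the nearest peak. Nor did it name the CpG ratio at the TSS with its quartiles, or the cover of introns. No paired analysis was possible with the list used, because its values come from no test and the replicates were pooled in it. For the same reason no replicate could be left out. The separate libraries of the replicates were not analysed. The study states a minimum of reads for its libraries, but the depth behind the list is not known from it, so a gene without a peak may lie under the cutoff of the call.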
